A study of Mus musculus with 38 samples.

Results

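The addition of Sall4 to the factor set JGE, without the growth factor BMP4, was examined at day 7 by comparing 1 JGES library with 1 JGE library across all genes other than short RNAs. JGE stands for Jdp2, Glis1 and Esrrb, and JGES for the same 3 genes with Sall4. Both libraries were bulk RNA-seq of mouse embryonic fibroblasts (MEFs) that had taken up the genes by retrovirus for 2 days and were then kept in iCD3 medium, which held LIF, bFGF, vitamin C, TV, the inhibitors Y27632, SGC0946, CHIR99021 and LSD1-HCL, and no BMP4. The fibroblasts came from embryos, taken whatever their sex, of a cross that carried an Oct4-GFP reporter transgene, and each library was a bulk culture, in which cells that took up all genes and cells that did not were read together. The table that held both libraries had 8 libraries, 1 for each of JGE, JGES, JGEO and JGESO with and without 10 ng/ml BMP4, where O is Oct4 (the gene Pou5f1). After 1426 entries of short RNAs and 876 second entries of a gene were left out, 34806 genes remained, and 15144 of them reached 1 FPKM (a level scaled to transcript length and library size) in at least 1 of the 2 libraries.

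SALL4 is a zinc finger protein of early embryos, embryonic stem cells and germ cells. It binds AT-rich DNA and recruits the NuRD complex, a chromatin remodeller with histone deacetylase activity, through a short stretch at its N terminus. In reprogramming, fibroblast genes have to be silenced and the network of pluripotency genes around Oct4, Sox2 and Nanog has to be switched on, while the cells lose mesenchymal features, gain epithelial ones and keep dividing.

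Since each side had 1 library, no test between the conditions could be made, and no difference below has a replicate error. Differences are given on the log2(FPKM + 1) scale, and a gene was called higher or lower where this difference was at least 1. The libraries also differed in ways other than Sall4. The labels give total RNA for JGES and polyA RNA for JGE, and JGES (with JGES plus BMP4) belongs to a time course of which the other 6 libraries are no part, so Sall4 and the experiment cannot be told apart. In JGES 16532 genes were listed at 0, against 13246 in JGE and 12892 to 14599 in the other libraries outside the time course. The lowest hundredth of the values above 0 ended at 0.0753 FPKM in JGES and at 0.0166 FPKM in JGE, so low genes were resolved less well in JGES. The median difference over the genes in a length class was between -0.03 and 0.07 for transcripts of up to 5000 nt and reached 0.36 in those over 10000 nt, and the part of RNA preparation in this was not tested. In a bulk library fewer cells of a type and less RNA per cell cannot be told apart.

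Of the 15144 genes, 3013 (19.9%) were higher and 2479 (16.4%) were lower in JGES than in JGE, and the median difference over all of them was 0.06. Counts of called genes in the lists below are to be read beside these shares. Differences of at least 2 were found for 685 higher genes (4.52%) and 575 lower genes (3.80%). The higher genes included 2476 protein-coding and 290 lncRNA genes, and the lower genes 2213 and 162. In JGE 421 of the higher genes were listed at 0, and in JGES 366 of the lower genes were, so for these no fold can be given. At the threshold, Rad51c (0.664 FPKM in JGE and 2.33 in JGES) and Has2 (0.593 and 2.19) lay just inside, Cenpj (0.686 and 2.37) just outside, Slc36a1 (36.1 and 17.5) just inside on the lower side and Orai2 (10.2 and 4.61) just outside it.

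**Figure D1:**
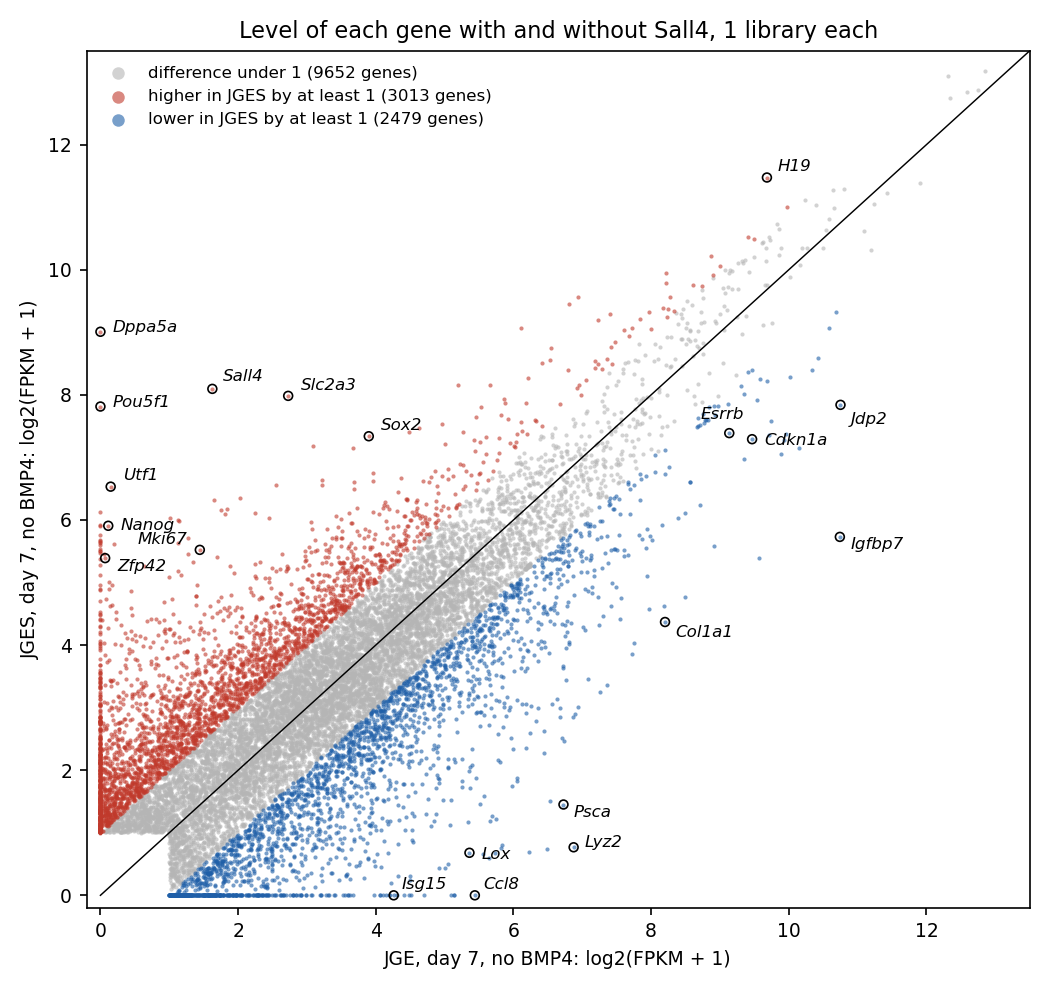
Each point is 1 of the 15144 genes, with log2(FPKM + 1) in the JGE library on the x axis and in the JGES library on the y axis (day 7, no BMP4, 1 library each). The 3013 red genes lay at least 1 above the diagonal and the 2479 blue genes at least 1 below it. Pluripotency genes such as Dppa5a and Pou5f1 lay on the left edge and Lyz2, Lox and Ccl8 near the lower edge.

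Sall4 itself (chr2:168748332-168767943 in GRCm38) was listed at 2.09 FPKM in JGE and at 273 FPKM in JGES. On the log2(FPKM + 1) scale this was a difference of 6.47, the third largest among the genes with at least 5 FPKM that carry a gene name. With 0.1 FPKM added in place of 1 it was 6.96, below those of Utf1 (8.78) and other genes. In the other pairs Sall4 was at 28.9 FPKM in JGEO and 174 in JGESO, and with BMP4 at 6.23 in JGE and 190 in JGES, so every library labelled with Sall4 was above every library without it. Reads from the vector and from the chromosomal gene were counted together. The delivered factors shared by both sides were not at the same level. Jdp2, an AP-1 family repressor, was at 1722 FPKM in JGE and 228 in JGES, 7.55-fold lower with Sall4. Esrrb, an orphan nuclear receptor, was at 561 and 167 FPKM, 3.37-fold lower. Both were also lower in JGESO (320 and 109 FPKM) than in JGEO (1290 and 384), and lower with BMP4 in JGES (254 and 125) than in JGE (1499 and 369). Glis1, a Krueppel-like zinc finger gene, was at 0.118 FPKM in JGE and listed at 0 in JGES, and did not exceed 1.10 FPKM in any of the 8 libraries, so the delivery of Glis1 could not be seen in these values. Each comparison below is therefore between cultures that differed in Sall4 and in the level of Jdp2 and Esrrb, and their parts cannot be told apart.

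Pluripotency genes were higher in JGES almost without exception. All 18 listed pluripotency transcription factors were called higher, with a median difference of 2.88 beside 0.06 over all genes, and of 22 further pluripotency genes 21 were higher and 1 lower, with a median of 4.33. Of these, 4 of the 18 and 12 of the 22 were listed at 0 in JGE, and none in JGES. Pou5f1 (chr17:35506018-35510772), which encodes Oct4, was listed at 0 in JGE and at 224 FPKM in JGES. Nanog (chr6:122707489-122714633), the homeobox gene of naive cells, was at 0.0818 and 59.0 FPKM. Sox2, the partner of Oct4 on DNA, was already at 13.9 FPKM in JGE and at 161 in JGES, an 11.6-fold difference. Thus the core of the network was near 0 in the JGE library except for Sox2. Among the others Utf1, a chromatin protein of stem cells, was at 0.109 and 91.6 FPKM, Zfp42 (Rex1) at 0.0485 and 40.9, Klf2 at 3.09 and 80.8, and Tfcp2l1 at 0.379 and 21.4 FPKM. The smallest differences of the list were those of Klf4 (9.20 and 24.8 FPKM, 1.34) and Otx2 (0 and 1.74 FPKM, 1.45).

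The largest difference of all named genes was that of Dppa5a (chr9:78367052-78368177), an RNA-binding protein gene of stem cells, which was listed at 0 in JGE and at 514 FPKM in JGES. Tdgf1, the NODAL co-receptor Cripto, was listed at 0 and at 58.5 FPKM. L1td1, derived from a LINE-1 open reading frame, was at 0 and 40.4 FPKM, and Trap1a, a tumour antigen gene on the X chromosome, at 0 and 48.9 FPKM. Mylpf, a myosin light chain gene, was at 0 and 53.3 FPKM. Alpl, the alkaline phosphatase used to stain pluripotent colonies, was at 1.20 and 62.4 FPKM, a 52.1-fold difference. The exception was Mt1, a metallothionein gene, with 127 FPKM in JGE and 44.5 in JGES. Trh, the thyrotropin-releasing hormone gene, also belonged to the 15 largest differences, with 0 and 59.3 FPKM. Genes of the formative and primed states, which follow the naive state, were divided. Of 10, 4 were higher, among them the de novo methyltransferase gene Dnmt3b (1.11 and 17.2 FPKM) and T, the Brachyury gene (0 and 8.94). Pou3f1 was lower (9.75 and 0.987 FPKM), and the others differed by less than 1 or stayed under 1 FPKM in both libraries.

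The promoter of Zfp42 is shown because it was the only one of 14 listed pluripotency transcription factors with a promoter window in the RefSeq table (GRCm38.p6) that held the octamer ATGCAAAT, the letters bound by Oct4, on either strand. The octamer was in 1.74% of 32851 windows of 300 bases and in 1.92% of the windows of higher genes. The 250 bases before the start of Zfp42, chr8:43307010-43307259 on the minus strand, are given 5′ to 3′ with the octamer, here read on the opposite strand, in capitals. The match begins 186 bases before the start and is a description of letters, not of a site in use.
Zfp42: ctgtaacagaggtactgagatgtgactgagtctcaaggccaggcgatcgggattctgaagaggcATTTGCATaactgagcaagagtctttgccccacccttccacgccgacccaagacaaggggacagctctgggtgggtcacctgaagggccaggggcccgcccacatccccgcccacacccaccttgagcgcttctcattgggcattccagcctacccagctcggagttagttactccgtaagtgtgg

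Genes of germ cells and of the 2-cell embryo were higher as well. Among 20 listed germline genes, 14 were higher, 1 was lower and 5 were under 1 FPKM in both libraries, with a median difference of 1.22 over all 20. Most of the higher ones were near 0 in JGE and passed the limit of 1 FPKM through JGES alone. Dazl, an RNA-binding protein of germ cells, was at 0.0185 FPKM in JGE and 20.1 in JGES. Sohlh2, a germ cell transcription factor, was listed at 0 and at 17.6 FPKM, and Rhox5, an X-linked homeobox gene, was at 1.02 and 64.5 FPKM. The lower gene was Sycp3 of the synaptonemal complex (8.53 and 1.99 FPKM). Of 11 genes of the 2-cell stage in the table, 7 were higher, of which 6 were listed at 0 in JGE, and the other 4 were under 1 FPKM in both (median 1.65 over the 11). Zscan4f, a telomere-associated zinc finger gene, was at 0.0344 and 42.8 FPKM, and its paralog Zscan4c at 0 and 20.2. Zscan4 genes are near-identical copies, as are Fthl17c (0 and 44.5 FPKM) and Fthl17b (0 and 37.9), 2 X-linked ferritin-like genes, so how their reads were divided is uncertain. A cluster of 7 predicted protein-coding genes on chromosome 10, from Gm21293 to Gm4340 (chr10:104142987-104196522), was listed at 0 in JGE and at 43.3 to 50.3 FPKM in JGES. In JGES at day 0 these genes were at 0.801 to 2.76 FPKM. Their values were close to each other in JGESO too (4.65 to 5.65 FPKM), and how reads were divided among them was not tested.

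Cell cycle genes were higher in JGES. Of 22 listed, 19 were called higher and none lower, and the median difference was 2.06. Mki67, the proliferation antigen, was at 1.72 FPKM in JGE and 44.9 in JGES, a 26.1-fold difference. Top2a, the topoisomerase of mitotic chromosomes, was at 8.33 and 98.1 FPKM. Ccnb1, cyclin B1, was at 10.2 and 63.7 FPKM, and its kinase gene Cdk1 at 7.70 and 26.2. The 6 genes of the MCM helicase, which opens DNA at replication origins, differed by 1.56 (Mcm7) to 2.24 (Mcm6). Pcna, the sliding clamp of the polymerases, was at 63.7 and 145 FPKM. Ccne1, Ccne2 and Cdc6, which act before S phase, were above JGE by 0.89, 0.44 and 0.87 and were not called. Cell cycle inhibitor genes of the senescence and p53 list were among its lower members. Cdkn1a, which encodes p21, was at 706 FPKM in JGE and 156 in JGES, Cdkn2a (the INK4a/ARF locus) at 110 and 24.8, and Cdkn2b at 68.2 and 11.5. Of 14 senescence and p53 pathway genes, 6 were lower and 1 (Bbc3, 2.64 and 7.28 FPKM) higher, with a median of -0.76, while Trp53 itself was at 46.0 and 88.0 FPKM and was not called.

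The letters CCAAT, bound by the factor NF-Y and found in many promoters of G2/M genes, were in the promoter windows of 15 of 18 cell cycle genes with a window, on either strand. They were in 44.7% of the windows of higher genes, 34.8% of those of lower genes and 37.4% of all windows. The 250 bases before the start are shown for Cdk1 (chr10:69352913-69353162, minus strand) and Ccnb1 (chr13:100786487-100786736, minus strand), with CCAAT or its reverse ATTGG in capitals. Cdk1 holds 3 matches, which begin 208, 80 and 48 bases before the start, and Ccnb1 holds 2, at 99 and 67 bases.
Cdk1: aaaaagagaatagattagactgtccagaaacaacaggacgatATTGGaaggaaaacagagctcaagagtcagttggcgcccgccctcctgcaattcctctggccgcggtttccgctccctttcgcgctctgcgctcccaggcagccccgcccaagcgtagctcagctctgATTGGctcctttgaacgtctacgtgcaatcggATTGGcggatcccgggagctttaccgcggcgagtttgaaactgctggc
Ccnb1: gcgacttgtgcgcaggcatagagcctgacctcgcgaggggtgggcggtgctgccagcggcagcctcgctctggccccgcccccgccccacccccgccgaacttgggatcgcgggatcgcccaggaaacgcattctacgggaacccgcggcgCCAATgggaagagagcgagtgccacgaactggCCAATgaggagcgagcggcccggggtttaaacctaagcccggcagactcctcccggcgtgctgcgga

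Glycolysis and DNA methylation lists held more higher than lower genes. Of 17 glycolysis genes, 11 were higher and 1 lower, with a median of 1.44. Slc2a3, the neuronal and embryonic glucose transporter, was at 5.62 FPKM in JGE and 252 in JGES, a 44.8-fold difference, and Slc2a1 at 21.3 and 168. The enzymes Pgk1 (149 and 586 FPKM) and Aldoa (169 and 624) were higher, whereas Hk1, a hexokinase gene, was lower (44.5 and 21.4). Gapdh, often used as a reference gene, was at 110 and 338 FPKM and was called higher with this list. Of 9 genes for DNA methylation and demethylation enzymes, 6 were higher and none lower. Dnmt3l, the cofactor of the de novo enzymes, was listed at 0 and at 28.4 FPKM, the dioxygenase genes Tet1 and Tet2 were at 0.368 and 13.9, and 2.42 and 11.6 FPKM, and Uhrf1, which brings Dnmt1 to replicated DNA, at 16.6 and 77.3. Dnmt3a, Tet3 and Tdg differed by less than 1.

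Epithelial genes were higher in part. Of 24 listed, 12 were higher and none lower (median 1.09 over all 24). Cdh1, E-cadherin, was at 5.21 FPKM in JGE and 42.8 in JGES, and Epcam at 1.53 and 39.1. Cldn6, a claudin of early embryonic epithelia, was at 0.413 and 16.8 FPKM. The keratin genes Krt8, Krt18, Krt19 and Krt7 differed by less than 1. Of the 12 primitive endoderm genes that the study follows, 7 were higher and 1 lower, with a median of 1.32. Gata4, an endoderm transcription factor, was at 0.441 and 10.0 FPKM, Foxa2 at 0.877 and 10.5 and Sox17 at 0.0350 and 3.03, while Gata6 (7.48 and 11.8) and Dab2 (5.81 and 9.57) were not called and Eva1a was lower (7.09 and 2.80). In the yolk-sac receptor complex, Cubn was at 0.05 and 13.3 FPKM and Amn at 0.667 and 12. Of 16 endothelial genes 9 were higher and 1 was lower (Emcn, 3.92 and 0.754 FPKM), beside 19.9% higher and 16.4% lower over all genes. Pecam1, which pluripotent cells also express, was at 0.0809 and 18.4 FPKM, the VE-cadherin gene Cdh5 at 0.0935 and 4.60, and Sox18 at 1.75 and 18.4.

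Genes of the fibroblast state were lower in JGES. None of 28 matrix and contractile genes was higher, 21 were lower, and the median difference was -2.24. Col1a1 (chr11:94936224-94953042), the main chain of type I collagen, was at 293 FPKM in JGE and 19.7 in JGES, 14.9-fold lower. Its partner chain gene Col1a2 was at 214 and 15.4 FPKM, and Col3a1 at 118 and 6.47. Lox, which cross-links collagen, was at 40.1 and 0.602 FPKM, the largest difference of the list (-4.68), and S100a4 (also called fibroblast-specific protein) at 62.3 and 2.37. The collagens and their modifiers were thus many fold lower in these examples, whereas Vim (394 and 251 FPKM), Fn1 (300 and 180) and the smooth muscle genes Acta2 (15.5 and 7.47) and Tagln (38.8 and 21.1) were not called. Of 22 mesenchymal transcription factors, 8 were lower and 2 higher, beside 16.4% lower and 19.9% higher over all genes. The lower ones included Prrx1 (22.6 and 5.44 FPKM), Osr1 (9.92 and 1.48) and Alx4 (10.1 and 0.856). Meox1, a homeobox gene of the somites, was higher instead (0.998 and 33.0 FPKM), and Zeb1, Snai1 and Snai2, which repress E-cadherin, were not called. A set of 6 fibroblast markers (Col1a1, Col1a2, Col3a1, Prrx1, Twist1 and Thy1) summed to 763 FPKM in JGE and 82.6 in JGES, and 6 pluripotent markers (Nanog, Zfp42, Dppa5a, Tdgf1, Dppa4 and Sox2) to 14.2 and 863. In the other pairs the fibroblast sum was higher in the library with Sall4, with 495 FPKM in JGEO and 685 in JGESO, and with BMP4 346 in JGE and 666 in JGES, and 314 in JGEO and 1036 in JGESO.

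Of 12 AP-1 family genes, which sustain the enhancers of fibroblasts, 6 were lower and none higher (median -1.05). Over the 11 measured genes the median was -1.28, beside 0.09 in JGESO against JGEO. With BMP4 it was -0.03 in JGES against JGE and 0.66 in JGESO against JGEO. Junb was at 134 FPKM in JGE and 28.3 in JGES, and Fosl2 at 12.2 and 2.09, while Jun (41.0 and 27.4) and Jund (119 and 103) were not called. Secreted genes that senescent cells release were lower in 10 of 19 cases and higher in none, with 7 under 1 FPKM in both libraries (median -1.12 over the 19). The chemokine gene Ccl2 was at 37.0 and 2.30 FPKM, the matrix protease genes Mmp3 and Mmp13 at 8.84 and 0 and at 9.16 and 0.278, and Igfbp3, which binds insulin-like growth factors, at 107 and 14.5. A related protein gene, Igfbp7, had the highest level among the 15 largest negative differences, with 1711 FPKM in JGE and 52.0 in JGES, 32.9-fold lower. These 15 also included Mgp, an inhibitor of calcification (34.1 FPKM and 0), the cathepsin K gene Ctsk (55.6 and 0.683), Gpnmb (91.9 and 1.86), Tm4sf1 (56.0 and 0.756), Klhdc8a (49.0 and 0.505), the collagen gene Col8a1 (46.2 and 0.581), Ccn5 (33.1 and 0), Popdc2 (34.1 and 0), Psca (105 and 1.74) and the chemokine gene Ccl8 (42.4 and 0). The histone genes H2ac18 (88.6 and 0.668 FPKM), H2ac19 (73.5 and 0.623) and H4c9 (25.0 and 0), and Lyz2, which is described below, completed the set. H2ac18 and H2ac19 are near-identical copies, so how their reads were divided is uncertain. With BMP4 H2ac18, H2ac19 and H4c9 were at 29.6, 26.5 and 15.3 FPKM in JGES, beside 72.8, 60.1 and 28 in JGE. The part of the RNA preparation in the levels of these histone genes was not tested.

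Interferon-stimulated genes were lower in JGES. Of 14 listed, 11 were lower and none higher, and the median was -2.56. Their sum was 461 FPKM in JGE and 164 in JGES, most of it from Bst2. In JGES at day 0 the sum was 89.5, so it was below that of JGE from the first day of the course. Isg15, a ubiquitin-like protein, was at 18.2 FPKM in JGE and listed at 0 in JGES. Ifit1, a sensor of foreign RNA, was at 11.1 and 0 FPKM, Irf7 at 16 and 1.34, and Ifi27 at 79.0 and 5.87. Stat2 (9.45 and 8.33 FPKM), Bst2 (254 and 139) and Ifit2 (5.92 and 2.78) were not called. B2m, the light chain of MHC class I, which interferon also raises, was at 651 and 124 FPKM. These genes were lower in the other pairs too. There 10 of 14 were lower in JGESO than in JGEO (beside 20.5% of all genes), and the median was -1.84, and -1.97 between the BMP4 libraries of JGES and JGE.

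The promoters of Isg15 (chr4:156200819-156201068, minus strand) and Ifit1 (chr19:34640639-34640888, plus strand) are shown because both genes were listed at 0 in JGES and both hold GAAA, any 2 bases and GAAA again, the core letters of the interferon-stimulated response element. The capitals mark these 10 bases or their reverse complement, and overlapping matches are joined. Isg15 holds 3 overlapping matches, which begin 78, 72 and 66 bases before the start, and Ifit1 holds 2, at 104 and 85 bases. The letters were in 6 of 10 interferon-stimulated genes with a window (Bst2, Ifit1, Ifit3, Isg15, Rsad2 and Stat2), in 3.98% of the windows of lower genes, 2.45% of those of higher genes and 3.44% of all windows. Stat2 and Bst2 hold the letters and were not called.
Isg15: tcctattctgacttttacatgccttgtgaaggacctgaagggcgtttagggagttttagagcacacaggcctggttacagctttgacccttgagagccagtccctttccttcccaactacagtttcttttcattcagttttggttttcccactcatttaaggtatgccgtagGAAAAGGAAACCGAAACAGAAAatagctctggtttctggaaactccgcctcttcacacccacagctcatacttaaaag
Ifit1: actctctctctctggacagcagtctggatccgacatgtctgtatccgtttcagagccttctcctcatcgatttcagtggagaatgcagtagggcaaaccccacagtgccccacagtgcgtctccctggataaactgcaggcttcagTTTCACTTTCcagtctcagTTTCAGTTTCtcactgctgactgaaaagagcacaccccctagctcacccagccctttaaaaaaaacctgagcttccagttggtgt

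Macrophage genes were lower as well. Of 12 listed, 9 were lower and none higher, with a median of -2.18 over the 12, and 6 of the lower ones were listed at 0 in JGES. Lyz2 (chr10:117277331-117282321), the lysozyme of myeloid cells, was at 116 FPKM in JGE and 0.703 in JGES. On the log2(FPKM + 1) scale this was the largest negative difference of all named genes (-6.11). With 0.1 FPKM added in place of 1 it was -7.18, and those of Ccl8 (-8.73), Popdc2, Mgp, Ccn5 and H4c9 were larger. The complement genes C1qa, C1qb and C1qc were at 17.5, 20.2 and 14.8 FPKM in JGE and were listed at 0 in JGES, and so were the receptor gene Csf1r (3.03 FPKM in JGE), Adgre1 (2.11) and Fcer1g (5.17). A set of 6 macrophage markers (Csf1r, C1qa, C1qb, Tyrobp, Cd68 and Adgre1) summed to 66.1 FPKM in JGE and 5.42 in JGES, of which Cd68 gave 4.76. Over the 8 libraries this sum was between 5.42 and 66.1 FPKM, with 8.24 in JGES plus BMP4 and 23.0 to 40.7 in the others. In JGES at day 0, from the same time course, it was 6.90 FPKM and Lyz2 was at 4.45, so both were low in the JGES course without BMP4 from its first day. Whether the JGE culture held more macrophages at the start, and their part in the lower interferon and chemokine genes, was not tested.

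**Figure D2:**
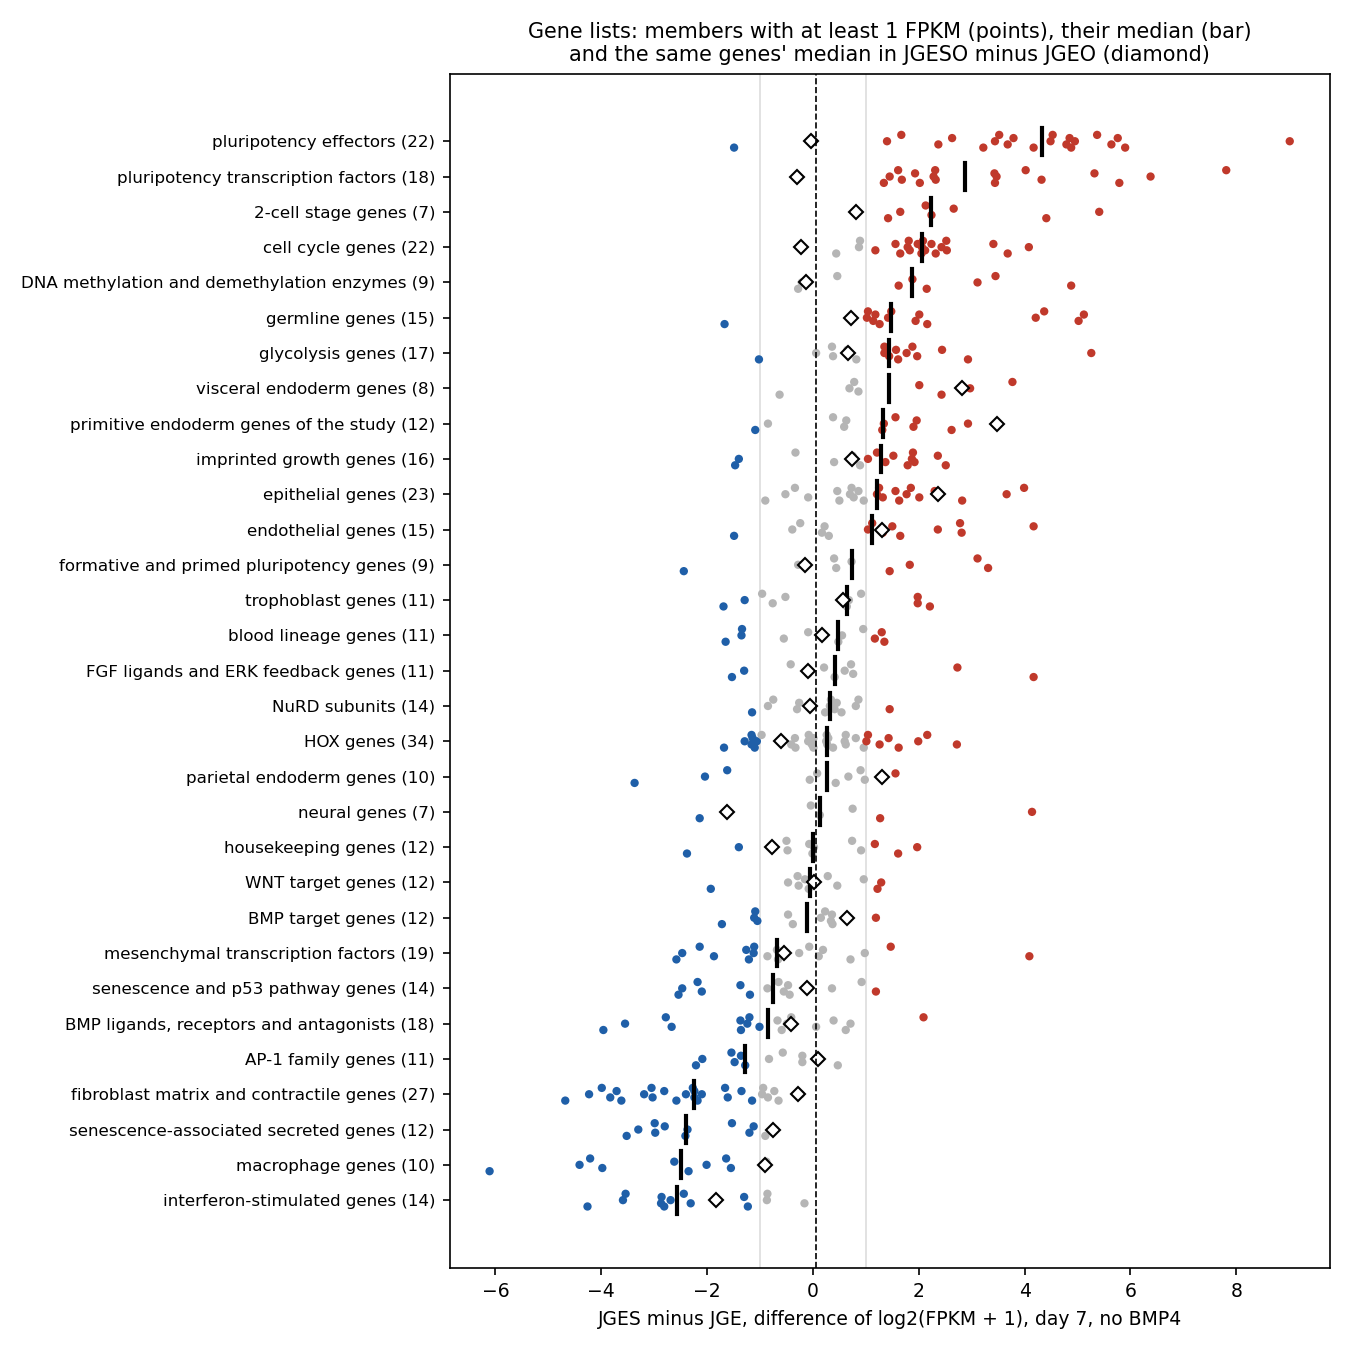
Each point is a list member with at least 1 FPKM in JGE or JGES, placed at its difference of log2(FPKM + 1), JGES minus JGE; red and blue points are called higher and lower, the number of members stands in brackets and the dashed line is the median over all genes (0.06). Black bars are list medians, from 4.33 for pluripotency effectors to -2.56 for interferon-stimulated genes, and open diamonds are the medians of the same genes in JGESO minus JGEO, where those of both pluripotency lists lay near 0 (-0.04 and -0.30).

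Signalling and chromatin lists are small and are given beside the 19.9% higher and 16.4% lower over all genes. Of 14 measured NuRD subunit genes, 1 was higher (Rbbp7, 47.5 and 132 FPKM), 1 lower (Chd3, 28.8 and 12.4), and the other 12, among them Chd4, Mta1, Mbd3 and Gatad2b, differed by less than 1. Among 12 WNT target genes 2 were higher, 1 was lower and 9 were not called (median -0.06), with Axin2 at 23.5 and 16.7 FPKM. The medium held the GSK3 inhibitor CHIR99021 on both sides. Ccnd1, the cyclin D1 gene, was the lower one, with 177 and 45.5 FPKM. Of 12 BMP target genes, 4 were lower (Id2, Id3, Smad6 and Smad7) and Msx2 was higher, with a median of -0.11, and Id1 was at 48.8 and 63.3 FPKM. Among 20 BMP ligands, receptors and antagonists 1 was higher (the receptor gene Acvr2b, 1.48 and 9.53 FPKM) and 9 were lower, including Fst, which binds activin (32.9 and 1.17 FPKM), Gdf6 (13.2 and 0.210), Grem1 (13.4 and 1.25) and the procollagen protease gene Bmp1 (57 and 7.42), while Bmp4 itself was at 33.0 and 23.2 FPKM. Among FGF genes Fgf4, the stem cell ligand, was listed at 0 and at 17 FPKM, and the feedback genes Dusp6, Etv4, Etv5 and Spry2 were not called although Spry1 (110 and 37.4 FPKM) and Spry4 (44.8 and 17.6) were lower.

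Imprinted growth genes were higher in 10 of 16 cases and lower in 2 (median 1.29). H19, a maternally expressed RNA, was at 821 FPKM in JGE and 2843 in JGES, its neighbour Igf2 at 177 and 458, and the retrotransposon-derived Peg10 at 49.4 and 286. Cdkn1c, which encodes p57, was lower (823 and 296 FPKM), as was Ndn (35.4 and 12.8). Of 39 HOX genes, 8 were higher and 7 lower with a median of 0.01, shares near the 19.9% and 16.4% over all genes, for example Hoxc9 (2.42 and 12.5 FPKM) and Hoxb9 (21.6 and 6.05). A list of 12 housekeeping genes had a median difference of 0.00, with members that went both ways. Among them 3 were higher and 2 lower, with differences from -2.38 to 1.97. Actb (608 and 604 FPKM) and Hprt (47.1 and 47.6) were at about the same level in both libraries.

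The same factor was also added on another background and under BMP4, in libraries that share none with JGES and JGE. JGESO against JGEO gave 974 higher (7.13%) and 2801 lower genes (20.5%) of 13655, with a median of -0.26. For both sets of genes the share with the same sign there was above that of all genes. Of the 2479 lower genes, 77.4% were below 0 in JGESO against JGEO and 29.4% were lower by at least 1, beside 61.8% and 17.6% of all 15144 genes. Of the 3013 higher genes, 51.8% were above 0 and 12.7% higher by at least 1, beside 37.7% and 5.65% of all genes. Under BMP4, where JGES against JGE gave 1691 higher (11.8%) and 1430 lower genes (9.98%) of 14331, 72.9% of the higher genes were above 0 and 82.5% of the lower genes below 0, beside 45.2% and 52.8% of all genes. The 2 JGES libraries come from 1 time course and the 2 JGE libraries do not, so the BMP4 pair carries the same difference between experiments. JGESO against JGEO with BMP4 gave 1030 higher (7.36%) and 2913 lower genes (20.8%) of 13992, and here 33.4% of the genes higher in JGES were above 0, beside 33.7% of all genes, and 71.6% of the lower ones below 0, beside 65.8%.

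In both factor sets without BMP4, 382 genes were higher and 728 lower. Ranked by the smaller of the 2 differences, the higher ones were led by the testis tubulin gene Tuba3a (0 and 14.8 FPKM, 1.28 in JGEO and 31.8 in JGESO), Fthl17c, Fthl17b, Cldn6 (1.84 in JGEO and 150 in JGESO), Fthl17-ps1, another copy of the ferritin-like genes, and the gonad transcription factor gene Dmrt1 (0.535 and 14.8, then 0.968 and 19.8). Col9a2, a cartilage collagen gene, was at 4.88 and 92.8 FPKM and then at 6.25 and 73.4, and Tmprss2, a serine protease gene, at 0.136 and 9.88 and then at 0.0769 and 48.1. The lower ones were led by Ccl8 (56.9 FPKM in JGEO and 0.792 in JGESO), the protease gene Prss23 (65.5 and 2.66, then 36.3 and 0.983), the procollagen protease gene Adamts2 (31.2 and 0.356, then 34.1 and 1.14) and Nqo1, a quinone reductase (163 and 9.33, then 106 and 8.28). A further 236 genes were higher in JGES but lower in JGESO, which is 7.83% of the higher genes, beside 17.6% of all genes lower in JGESO. Another 61 were lower in JGES but higher in JGESO, which is 2.46% of the lower genes, beside 5.65% of all. Both shares were below those of all genes.

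Lists differed in this respect. Pluripotency genes were already present in JGEO, with Nanog at 19.6 FPKM, Dppa5a at 164 and Zfp42 at 6.56, and in JGESO these were at 11.5, 262 and 3.63. The level of Pou5f1 there, 1570 FPKM in JGEO and 370 in JGESO, includes the delivered Oct4. Cell cycle genes had a median of -0.22 between JGEO and JGESO, with none of 22 higher and 3 lower, and the matrix genes one of -0.29, with Col1a1 at 151 and 153 FPKM. Under BMP4 the matrix median was 0.11 in JGES against JGE and 0.55 in JGESO against JGEO, with 12 and 9 of the 27 genes below 0. Without BMP4, primitive endoderm genes of the study had a median of 3.47 in JGESO against JGEO, and of 1.32 between JGE and JGES, and Gata4 was at 0.335 FPKM in JGEO and 75.2 in JGESO. Epithelial genes had a median of 2.36 in JGESO against JGEO without BMP4, with 17 of 23 higher. With BMP4 the pluripotency genes of JGES were low, Dppa5a at 18.7 FPKM and Nanog at 1.78, though still above JGE plus BMP4, where both were listed at 0. The 15 largest negative differences kept their sign in JGESO against JGEO in 15 of 15 genes (61.8% of all genes were below 0), and the 15 largest positive ones in 7 (37.7% of all were above 0). With BMP4 in the same pair, 12 of the 15 negative ones were below 0 and 4 of the 15 positive ones above 0.

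**Figure D3:**
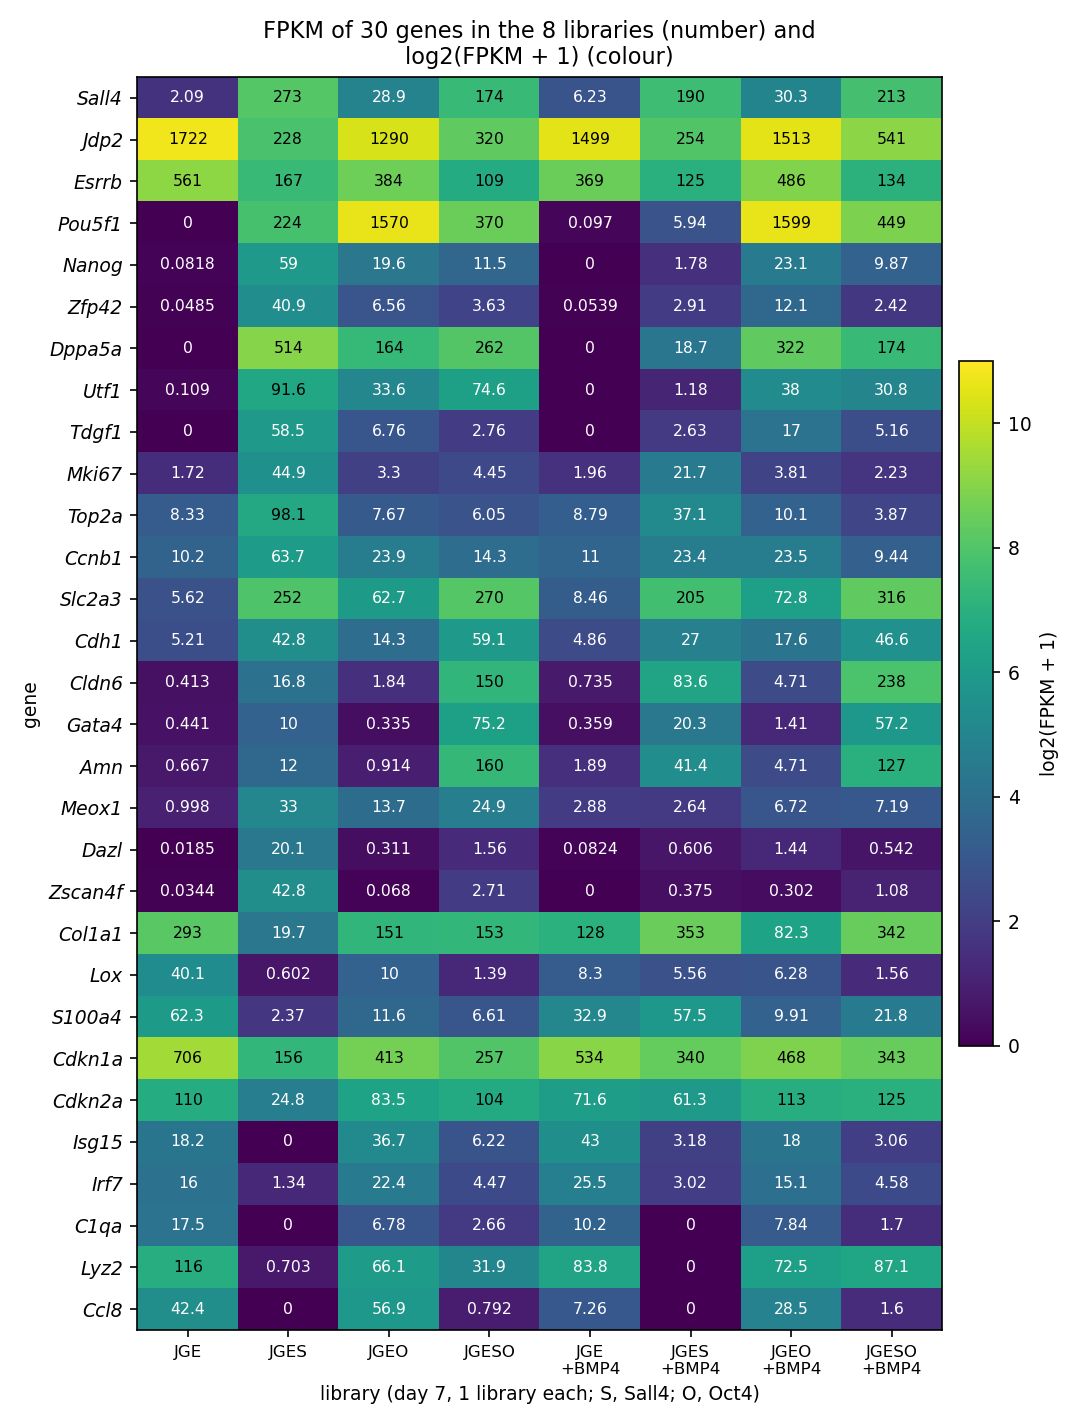
FPKM of selected list and named genes (down) in the 8 libraries of day 7 (across, 1 library each), with log2(FPKM + 1) as colour. Sall4 was at 174 FPKM or more in each of the 4 libraries labelled with it. Pou5f1, Nanog and Dppa5a were high in JGES and in all libraries with Oct4, and Ccl8 and Isg15 were lower with Sall4 in each of the 4 pairs.

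The JGES time course gave the levels of these genes on earlier days, with 1 library a day. JGE was read at day 7 alone, so the day on which a difference from JGE arose cannot be given. The course was quantified in a separate table, in which the JGES library of day 7 is the one compared here (its values in the 2 tables stand in a constant ratio of 0.975), so only days 0 to 5 are other libraries, and levels set against JGE cross the 2 tables. Over 2902 higher genes found in that table, the median of log2(FPKM + 1) was 1.87 on day 0, then 1.83 (day 1), 2.26 (day 3), 2.84 (day 5) and 3.13 (day 7), beside 1.23 in JGE. Over 2394 lower genes it was 2.74, 2.67, 2.53, 2.19 and 1.91, beside 3.70 in JGE. Both sets were chosen by the values of JGE and of JGES at day 7, so where the other days lie relative to these libraries follows in part from that choice, and the medians are a description. The 9342 genes not called had medians of 3.08 to 3.28 on these days, beside 3.19 in JGE.

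Single genes differed in their courses. Dppa5a was at 0, 1.52, 3.77 and 236 FPKM at days 0, 1, 3 and 5, Pou5f1 at 0.931, 9, 50.1 and 170, and Nanog at 0, 2.22, 13.1 and 40.8, so Dppa5a was still low on day 3, when Pou5f1 and Nanog were not. Dazl was listed at 0 up to day 3 and was at 1.30 FPKM at day 5, and Zscan4f stayed between 1.70 and 4.62 FPKM up to day 5, both far below their levels at day 7. Mki67 was at 34.8 FPKM at day 0 and 57.7 at day 5, so its level in JGES was above that of JGE (1.72) throughout. Col1a1 went from 524 FPKM at day 0 to 72.7 at day 1 and 12.1 at day 5, and Lox from 90.8 to 3.09 and 0.957, which is a drop from day 0. Cdkn2a was at 12 to 33.8 FPKM on every day and did not reach its level in JGE (110). Sall4 was highest at day 1 (712 FPKM) and lowest at day 7.

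**Figure D4:**
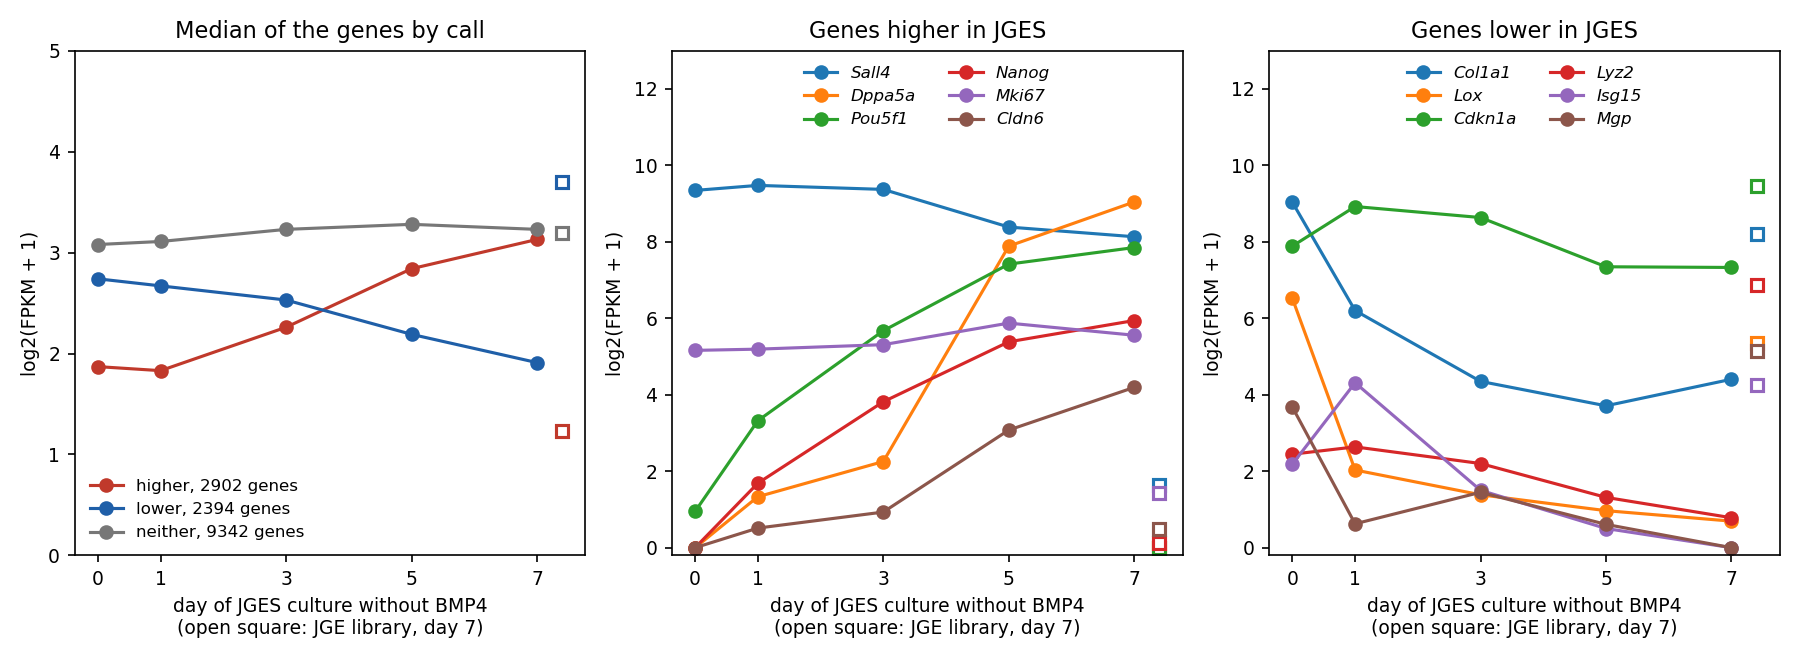
Left, median log2(FPKM + 1) of the genes called higher, lower or neither over days 0 to 7 of JGES without BMP4 (filled points, 1 library a day), with the JGE library of day 7 as open squares; middle and right, single genes on the same scale. The median of the higher genes went from 1.87 to 3.13 with JGE at 1.23, and that of the lower genes from 2.74 to 1.91 with JGE at 3.70.

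A single-cell sample of JGES at day 7 without BMP4 showed which cells carried the genes. It is 1 sample, with no JGE sample beside it, and holds 8685 cells that the authors named as intermediate state (6211 cells, 71.5%), pluripotent (1825, 21.0%), endothelial (507, 5.84%) and ParE (142, 1.64%), an endoderm-like type called here by its label in the table, with median depths of 11562 to 15444 UMIs. No test was made, and intervals are exact Poisson 95% intervals that cover counting error only. Of the 2286 higher genes with at least 20 UMIs, 52.9% had their highest level in UMIs per 1000000 (CPM) in pluripotent cells and 13.8% in intermediate cells, beside 28.6% and 24.8% of 12612 genes tested in bulk. Of the 1961 lower genes, 11.4% were highest in pluripotent and 41.1% in intermediate cells. These genes were chosen on a bulk library of the same condition, and the ParE shares (22.6% and 26.6%, beside 29.3% of all) rest on the fewest cells.

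Among single genes, Dppa5a was at 6305 CPM (6277 to 6334) in pluripotent cells and 261 CPM in intermediate cells, beside 253 CPM in endothelial cells and 809 CPM in ParE. Types in which the gene is not expected thus gave unequal values, and the part of free RNA or doublets in them was not tested. Zfp42 stood at 231 CPM (226 to 237) against 6.08, with 7.13 in endothelial cells, and Nanog at 99.9 CPM (96.3 to 104) against 5.72 and 7.01. Germline genes followed, with Dazl at 40.2 CPM in pluripotent and 1.64 in intermediate cells, and 13 of 14 of the list highest in pluripotent cells. Of 22 cell cycle genes 17 were highest in pluripotent cells and 20 were higher there than in intermediate cells, with a median ratio of 0.80 on the log2 scale beside -0.11 over all genes. Ccnb1 was at 107 CPM in pluripotent and 55.7 in intermediate cells, whereas Mki67 went the other way, at 27.5 CPM (25.6 to 29.5) in pluripotent and 34.8 (33.5 to 36.0) in intermediate cells. All 12 primitive endoderm genes were highest in ParE, where Gata4 was at 59.8 CPM (49.3 to 71.9) against 0.337 or less in the other types, and Cldn6 at 134 CPM against 6.10 or less. Meox1, at 42.1 CPM in intermediate and 5.12 in pluripotent cells, was a higher gene of the intermediate state. H19 was highest in endothelial cells, at 5665 CPM, with 2162 in intermediate cells, 1247 in ParE and 334 in pluripotent cells. Of 25 matrix genes 19 were highest in intermediate cells, with Col1a1 at 38 CPM (36.7 to 39.3) against 7.04 in pluripotent cells. Zscan4f was at 0.101 CPM (0.0208 to 0.295) in pluripotent cells despite its bulk level of 42.8 FPKM. This value rests on 3 UMIs, and the gene was under the limit of 20 UMIs over the sample. How reads of near-identical copies were treated in each assay was not tested.

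**Figure D5:**
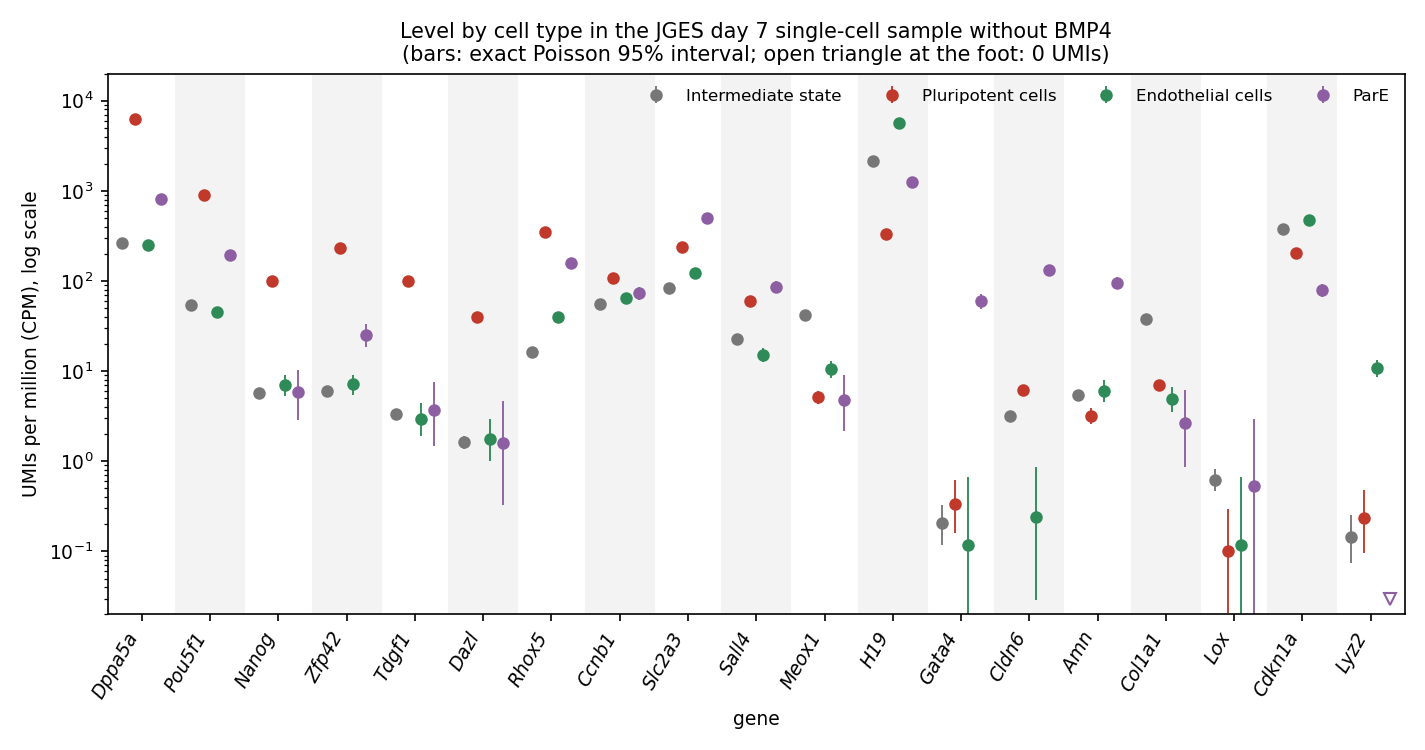
CPM (log scale) of selected genes in the 4 cell types the authors named in the JGES sample of day 7 without BMP4 (8685 cells, 1 sample); bars are exact Poisson 95% intervals and an open triangle marks 0 UMIs. Dppa5a (6305 CPM), Nanog and Dazl were highest in pluripotent cells, Gata4, Cldn6 and Amn in ParE, and Col1a1 and Meox1 in intermediate cells.

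Promoter peaks of other experiments were set beside the calls. SALL4 and H3K27ac peaks came from MEFs with wild-type SALL4 alone at day 6 (CUT&Tag) and open sites from untreated MEFs (ATAC-seq), each a single peak list. Within 2000 bp of a start, a SALL4 peak was found for 65.0% of 2679 higher and 72.2% of 2306 lower genes, beside 84.2% of the genes not called and 78.6% of all 14113. H3K27ac peaks gave 59.7%, 63.0% and 82.6%, and MEF ATAC-seq peaks 78.1%, 90.4% and 95.4%. The share with a SALL4 peak was thus lower among called genes than among the others, a description with no test, and it was lower in each class of mean level, for example 81.2% of higher, 81.4% of lower and 90.1% of other genes with a mean log2(FPKM + 1) of 3 to 5. By list, each of 27 matrix genes had an open promoter in MEFs, beside 91.3% of all genes, and 22 had a SALL4 peak, near the 78.6% of all genes. Of 18 pluripotency transcription factors 15 were open and 10 had a SALL4 peak. Of 22 pluripotency effectors 12 were open and 8 had a SALL4 peak. Among single genes of these lists, Dppa5a and Zfp42 had neither. Germline genes were open in 3 and had a SALL4 peak in 2 of 15 cases, 2-cell stage genes in none of 7, and cell cycle genes in 22 and 19 of 22.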

How the data were processed

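Bulk RNA-seq of 1 JGES and 1 JGE library of day 7 without BMP4 was compared. The authors trimmed reads with Trim Galore 0.6.4, mapped them to mm10 with HISAT2 2.2.1 and deposited FPKM from StringTie 2.2.1, with no read counts for these libraries, so their depth is unknown and the count-based method of the study (GFOLD) could not be run. FPKM times the longest annotated transcript length did not fall on whole multiples of a common step in either library. The lengths that the authors' tool used are not known, so this check cannot show whether reads could be recovered, and none were. Single-cell UMI counts per cell, with cell type names, were deposited by the authors after STAR and Scanpy. Peaks were deposited by the authors with a MACS 1.4.2 score after Bowtie2 2.4.5 and SAMtools 1.16.1, with CUT&Tag replicates merged.

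Python 3.11.15 with pandas 2.3.3, NumPy 2.4.6, SciPy 1.17.1 and matplotlib 3.10.9 was used. Genes entered with at least 1 FPKM in either library, a pseudocount of 1 FPKM was added, and a difference of 1 in log2 was a call. Short RNAs were left out, and of repeated symbols the highest entry was kept. The script was tested on simulated data. With 1 library a side no test was made. Named genes were the 15 largest differences each way among genes with at least 5 FPKM, without predicted genes (symbols of the forms Gm, Rik and LOC), members of the 39 lists, and the genes next to the threshold. Genes of other lists or pairs are named where a sentence says how they were picked. Members and lists were chosen with earlier results of these data known. UMIs were summed per cell type, and doublets were not tested. Counts and shares of genes by cell type used genes with at least 20 UMIs over the sample, a limit that Zscan4f, given as a single gene, did not reach. Among the cell barcodes, 2 were shared with the sample with BMP4. Another 10749 columns of fibroblast and stem cell barcodes and 11335 of the sample with BMP4 were not used. Coordinates are GENCODE M21 (GRCm38), and promoter sequences are from RefSeq (GRCm38.p6). Alternatives were another pseudocount, filter, fold, scaling and table, promoter width and peak score. A list of 13 mitochondrially encoded genes had none in the table. Some genes are not reported here.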

Additional observations from a re-analysis of the deposited data

Results flagged for a closer look

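Several results differed in sign between the addition of Sall4 to JGE and to JGEO, with 1 library in each place, and the difference between the 2 pairs was not tested. The median difference of the pluripotency transcription factors was 2.88 in JGES minus JGE and -0.30 in JGESO minus JGEO, that of the cell cycle genes 2.06 and -0.22, and that of the HOX genes with at least 1 FPKM 0.26 and -0.61. Over all genes tested in JGES and JGE the medians were 0.06 and -0.21, so the pluripotency and cell cycle medians in JGESO minus JGEO lay near that of all genes.

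Among the genes with the largest differences, Pou5f1 differed by 7.81 in JGES minus JGE and by -2.08 in JGESO minus JGEO, where both libraries carry delivered Oct4. Trh differed by 5.91 and -1.01. Tdgf1 differed by 5.90 and -1.04. Mylpf differed by 5.76 and -1.26.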

How the results depend on the processing

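No paired analysis was possible because each side had 1 library, and for the same reason no library could be left out. Without the filter on low values the median of trophoblast genes went from 0.64 to -0.13 and that of neural genes from 0.13 to -0.05, and no other list median and no named gene changed sign in the alternatives run. With a pseudocount of 0.1 the counts were 3795 higher and 3041 lower genes. The list medians were 4.50 for pluripotency transcription factors, 6.90 for pluripotency effectors, -3.28 for interferon-stimulated, -5.34 for macrophage and 4.03 for germline genes. Over the same members with at least 1 FPKM these were 2.88, 4.33, -2.56, -2.49 and 1.48 with a pseudocount of 1. The medians of 2-cell stage, endothelial and visceral endoderm genes went from 2.24, 1.12 and 1.43 to 5.26, 2.10 and 2.61. That of senescence-associated secreted genes went from -2.39 to -3.47. Of the named genes 26 moved by over 1.5-fold and 4 did not, with Dppa5a from 9.01 to 12.33 and Ccl8 from -5.44 to -8.73. With at least 5 FPKM in either library, which leaves fewer genes, 1875 were higher and 1742 lower, and the medians were -3.98 for macrophage and 4.29 for germline genes. A fold of 1.5 gave 4803 and 4094 genes and a fold of 4 gave 685 and 575. Rescaled to the median ratio the counts were 2998 and 2490, with JGES taken from the table of 17 libraries, over the 14685 genes found there, 3024 and 2312, and for protein-coding genes alone 2476 and 2213. Centred on the median of each length class, over the 14250 genes with a known length, they were 2537 and 2458. The centring and the restriction to protein-coding genes were chosen after seeing the data. The share of higher genes above 0 in JGESO against JGEO went from 51.8% to 49.7% with the pseudocount of 0.1. With at least 5 FPKM it was 48.9%. With length centring it was 67.2%, and the share of lower genes below 0 was 67.7%. The shares of all genes under these settings were not computed. Centring also shifts the values of JGESO against JGEO, so the 37.7% and 61.8% of all genes do not apply to it. With the promoter set to 500 bp a SALL4 peak was found for 60.2% of higher and 65.2% of lower genes, beside 73.7% of all. An ATAC-seq peak was found for 73.5% and 86.0%, beside 88.5% of all. With the highest-scoring part of the SALL4 peaks the shares were 49.0% and 48.4%, which turns their order, beside 58.6% of all genes. Unknown depth limits values near 0, above all in JGES.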

Other observations

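The share of genes called higher in JGES against JGE was larger on the X chromosome than on the autosomes, a pattern noticed in the data and not tested. Of 532 X-linked genes, 197 (37.0%) were higher and 39 (7.33%) lower, with a median difference of 0.48. Of 13710 autosomal genes 18.2% were higher and 16.8% lower, with a median of 0.02. Among protein-coding X-linked genes with at least 5 FPKM in either library, 33.3% were higher. The X-linked median was 0.15 between the BMP4 libraries of JGES and JGE, beside -0.06 for autosomes, and -0.28 in JGESO against JGEO, beside -0.22. In JGESO against JGEO with BMP4 it was -0.49, beside -0.27. Within the JGES time course it was 0.47 from day 0 to day 7, beside 0.23 for autosomes. Xist, the RNA that coats the inactive X chromosome, was at 10.2 FPKM in JGE and 38.9 in JGES. Genes of the Y chromosome were above JGE as well, with Ddx3y at 2.83 and 7.43 FPKM, Eif2s3y at 4.05 and 9.87, Uty at 0.479 and 1.98 and Kdm5d, which was not called, at 1.17 and 3.28. The embryos were taken whatever their sex, and the proportion of the sexes in each culture is not known here.

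The remaining lists are given as counts, beside 19.9% higher and 16.4% lower over all genes. Among 7 measured neural genes 2 were higher and 2 lower, with Stmn2, a neuronal tubulin-binding protein gene, at 0.364 FPKM in JGE and 23 in JGES and the eye field gene Pax6 at 3.74 and 0.078. Of 11 measured trophoblast genes 3 were higher and 2 lower, and of 11 blood lineage genes 3 were higher and 3 lower. Relatives of the delivered Esrrb and Glis1 were also lower, with Esrra at 29.6 FPKM in JGE and 11.8 in JGES and Glis2 at 149 and 26.4, while Glis3 (2.76 and 1.62) was not called. Among visceral endoderm genes 4 of 8 measured were higher and none lower, and among parietal endoderm genes 1 of 10 was higher and 3 were lower. Of 4 measured skeletal muscle genes 2 were lower, of 2 keratinocyte genes 1 was lower (Sfn), and neither of 2 adipocyte genes was called. In the SALL family 2 of 3 measured genes were higher, Sall4 among them.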
